A study of Saccharomyces cerevisiae with 6 samples.

Results

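Transcript levels of a bas1 mutant and of wild type (WT) Saccharomyces cerevisiae, budding yeast, were compared at 4 h in meiosis by RNA sequencing. The series holds 6 meiotic cultures of 3 genotypes, and 4 of them, 2 of the bas1 mutant and 2 of WT, enter this comparison. The other 2 are of an ino4 mutant, whose values are set beside the others where they help to read a gene. The authors' table has 1 combined FPKM value per genotype (fragments per kilobase of transcript model, corrected for the number of fragments mapped), so the spread between the 2 cultures is unknown and no difference has a replicate check or a test. All cultures had been grown in rich medium with acetate and then moved to potassium acetate, a medium without a nitrogen source in which diploid yeast sporulates. The labels name the genotypes only as bas1, ino4 and WT. Neither the bas1 allele nor the strain background or its markers are given in those labels. Cells were taken as whole cultures, so fewer cells at a stage and less RNA per cell cannot be told apart.

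Entries were compared if they named a single gene, had a value above 0 in both genotypes and at least 5 FPKM in 1 of them, were at least 300 bp long and overlapped no other entry. This left 4857 of 6932 entries. The measure was the difference of log2(FPKM + 1), bas1 minus WT, a scale on which changes of low genes look smaller, and a difference of 1 or more in size is called at least 2-fold. Folds given for single genes are plain ratios of FPKM.

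Bas1 is a Myb-related DNA-binding protein. Together with the homeodomain protein Pho2 it activates the genes of purine synthesis when adenine is scarce, and it also acts at histidine, glycine and one-carbon genes. One-carbon units carried by folate come from serine and from glycine, and the purine ring is built with them. Meiotic yeast cells run on acetate, pass through recombination, and then switch on the middle sporulation genes under the transcription factor Ndt80. These genes drive the meiotic divisions and build the spores.

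BAS1 itself was nearly absent from the mutant, with 0.00985 FPKM in bas1, against 19.4 in WT and 21.1 in ino4. Its neighbours on chromosome XI were near WT. UBP11 had a difference of -0.24 and SKG1 one of -0.18, while PCK1, the second gene to the left, had 0.64. Markers of meiotic cells were high in both genotypes. DMC1, the meiotic strand-exchange recombinase, had 4058 FPKM in bas1 and 3665 in WT, and IME1, the inducer of meiosis, had 7959 in bas1 and 7919 in WT. All 7 meiotic markers were slightly higher in bas1, with a summed FPKM of 17849 in bas1 and 16379 in WT. The 6 haploid and mating markers that could be compared summed to 167 FPKM in bas1 and 146 in WT, and none of the 9 was listed at 0. Of the 6 markers of dividing cells, 5 were lower in bas1, and they summed to 405 FPKM in bas1 and 679.9 in WT.

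Few genes differed. In bas1, 32 genes were at least 2-fold higher, which is 0.659% of the genes compared, and 72 were at least 2-fold lower, or 1.48%. The other 4753 lay between, and 91.0% of all genes were within 1.5-fold. The median difference was 0.02, with the 5th percentile at -0.62 and the 95th at 0.50. At the edge of the 2-fold rule, YFR032C (1.00) and EXG1 (-1.01) were just inside, and ICT1 (0.99) and YET2 (-0.998) were just outside. At the edge of the level rule, YCL073C with 5.10 FPKM was kept and MSH3 with 4.996 was not. Genes that stood next to each other and both passed the 2-fold rule were rare, with 3 such pairs, and medians of the 16 chromosomes lay between -0.05 and 0.07.

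**Figure D1:**
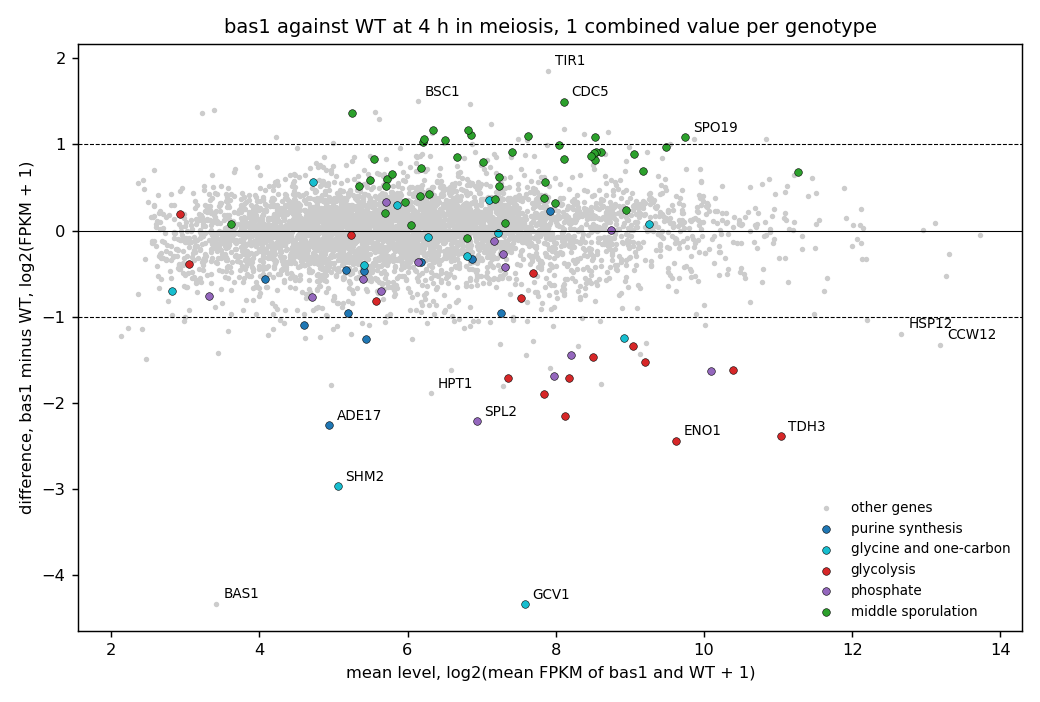
Difference in log2(FPKM + 1), bas1 minus WT, against the mean level of each gene in log2 units. Each point is 1 of 4857 genes, colours mark 5 gene lists and dashed lines mark the 2-fold rule; GCV1 and BAS1 lie lowest at -4.34 and TIR1 highest at 1.86, and the middle sporulation genes sit mostly above 0 while the glycolytic genes sit mostly below it.

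The genes for glycine cleavage and for the cytosolic one-carbon cycle held the largest differences apart from BAS1, and de novo purine synthesis genes stood lower as a list. A short stretch of the promoters of these genes is shown because Bas1 and the related site of Gcn4 share the core TGACTC, which also reads GAGTCA on the other strand. The letters come from the RefSeq genome and annotation R64, on the strand of the gene from 5′ to 3′, and capitals mark each match to the core. The first 6 are among the 7 genes of purine synthesis, one-carbon metabolism and purine salvage that passed the 2-fold rule, and GCV2 is shown because it did not. Positions are R64 coordinates, whereas positions of genes elsewhere are those of the table, in sacCer2.
GCV1 (chrIV:485488-485523, minus strand): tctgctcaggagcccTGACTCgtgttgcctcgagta
GCV3 (chrI:58539-58590, minus strand): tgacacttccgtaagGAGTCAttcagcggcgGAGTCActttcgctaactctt
ADE17 (chrXIII:509437-509602, minus strand): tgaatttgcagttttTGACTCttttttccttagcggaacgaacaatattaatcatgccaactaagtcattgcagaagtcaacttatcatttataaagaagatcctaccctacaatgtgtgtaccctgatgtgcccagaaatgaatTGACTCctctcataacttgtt
ADE4 (chrXIII:867428-867463, minus strand): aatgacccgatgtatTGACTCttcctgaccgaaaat
ADE12 (chrXIV:233941-234211, plus strand): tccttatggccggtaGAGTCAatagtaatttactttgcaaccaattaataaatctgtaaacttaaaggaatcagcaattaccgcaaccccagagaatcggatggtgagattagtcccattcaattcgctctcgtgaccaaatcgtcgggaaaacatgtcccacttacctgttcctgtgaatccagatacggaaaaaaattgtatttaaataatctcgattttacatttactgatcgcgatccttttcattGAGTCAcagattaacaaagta
HPT1 (chrIV:1269684-1269719, plus strand): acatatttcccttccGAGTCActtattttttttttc
GCV2 (chrXIII:637194-637281, plus strand): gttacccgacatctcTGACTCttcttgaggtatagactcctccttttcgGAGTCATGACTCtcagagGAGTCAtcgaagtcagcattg

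In the 500 bases before the start codon, searched on both strands, the core stood in 13.1% of 4802 promoters. Of the purine synthesis genes 10 of 11 held it, with ADE16 the exception, and of the one-carbon list 9 of 12 did. All 7 genes of these lists and of purine salvage that passed the 2-fold rule held it. Over all genes at least 2-fold lower in bas1 the share was 14 of 71, or 19.7%, and over those at least 2-fold higher it was 3 of 30. With 300 bases the share of all promoters was 7.96%, and the matches of ADE4, at 357 bases, and HPT1, at 369 bases before the start codon, fell outside. GCV2, with 4 matches, had 146 FPKM in bas1 and 149.6 in WT.

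Glycine cleavage needs 4 proteins, and their genes did not move together. GCV1, the aminomethyltransferase T subunit (chromosome IV, 484161 to 485363), had 17.1 FPKM in bas1, against 365 in WT and 441 in ino4, and was 21.4-fold lower in bas1 than in WT. GCV3, the lipoyl-carrying H protein, had 287 FPKM in bas1 and 681 in WT, 2.38-fold lower. GCV2, the decarboxylating P subunit, and LPD1, the lipoamide dehydrogenase shared with other enzymes, were near WT, the second with 626 FPKM in bas1 and 592 in WT. The complex thus had a pair of genes past the 2-fold rule and a pair close to 0.

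Serine hydroxymethyltransferase, which passes a carbon from serine to folate, has a cytosolic and a mitochondrial form, and the gene of the first alone passed the 2-fold rule. SHM2, the cytosolic form, had 6.57 FPKM in bas1, against 58.3 in WT and 68.2 in ino4, and was 8.87-fold lower in bas1 than in WT. SHM1, the mitochondrial form, had 153 FPKM in bas1 and 119 in WT. Other folate enzymes differed less. The mitochondrial MIS1 had 30.4 FPKM in bas1 and 20.3 in WT, the cytosolic ADE3 had 29.3 in bas1 and 40.8 in WT, and the cytosolic dehydrogenase MTD1 had 35.6 in bas1 and 47.2 in WT. SHM1, MIS1, ADE3 and MTD1 were all short of the 2-fold rule. Of the 12 genes of the one-carbon list, 3 were at least 2-fold lower, beside 1.48% of all genes, none was 2-fold higher, beside 0.659%, 4 had a positive difference, and the median was -0.18, or -0.07 over genes with at least 20 FPKM in a genotype. The folate synthesis gene FOL3 had a difference of -0.70 at low level, 4.39 FPKM in bas1 and 7.75 in WT.

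Along the purine pathway, 10 of 11 genes had a negative difference, beside 47.9% of all genes, 3 were at least 2-fold lower in bas1, beside 1.48% of all genes, and the median difference was -0.56. ADE4, whose product catalyses the committed step, had 14.5 FPKM in bas1 and 32.0 in WT, 2.21-fold lower. The next steps were closer to WT. ADE5,7, ADE8, ADE6 and ADE2 had differences of -0.47, -0.37, -0.56 and -0.33. ADE1, which adds aspartate, and ADE13, the lyase that acts here and again on the way to AMP, stood just short of the rule. ADE1 had 103 FPKM in bas1 and 201 in WT, and ADE13 had 23.9 in bas1 and 47.4 in WT.

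The last steps to inosine monophosphate are done by a pair of isozymes, Ade16 and Ade17, and only the gene of the second was lower. ADE17 (chromosome XIII, 507501 to 509279) had 9.66 FPKM in bas1, against 50.01 in WT and 62.1 in ino4, and was 5.18-fold lower in bas1 than in WT. ADE16 was the more abundant transcript per length in both genotypes and the only gene of the list that was higher, with 261 FPKM in bas1 and 222 in WT. No 30-base word of either gene's coding sequence occurs elsewhere in the genome. ADE12, which starts the branch to AMP, had 24.5 FPKM in bas1 and 60.2 in WT, 2.46-fold lower. Summed over the list, FPKM was 678 in bas1 and 932 in WT, a 1.37-fold lower sum, in which ADE16 has the largest single value in both genotypes.

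Purine salvage and the guanine branch stayed near WT except for HPT1, the phosphoribosyltransferase that recovers hypoxanthine and guanine. HPT1 had 32.8 FPKM in bas1, against 124 in WT and 121 in ino4, and was 3.78-fold lower in bas1 than in WT. The 12 other genes compared lay between -0.32, at the purine permease gene FCY2, and 0.36, at the nucleoside phosphorylase gene PNP1. The adenine counterpart APT1 had 54.4 FPKM in bas1 and 50.8 in WT. Among 10 genes of histidine and phosphoribosyl pyrophosphate synthesis none passed the rule and the median was -0.08. It was 0.04 over genes with at least 20 FPKM in a genotype, a set without HIS4. The 4 genes with TGACTC in the promoter, HIS1, HIS4, HIS5 and HIS7, had a median of -0.30, and the others one of 0.09. The 5 histidine genes included HIS4, a known target of Bas1, with 11.4 FPKM in bas1 and 18.6 in WT, and HIS5, with 54.5 in bas1 and 71.4 in WT, and the 5 PRS genes lay between -0.19 and 0.15. Of the regulators, PHO2 had a difference of -0.04 and GCN4 one of -0.07.

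**Figure D2:**
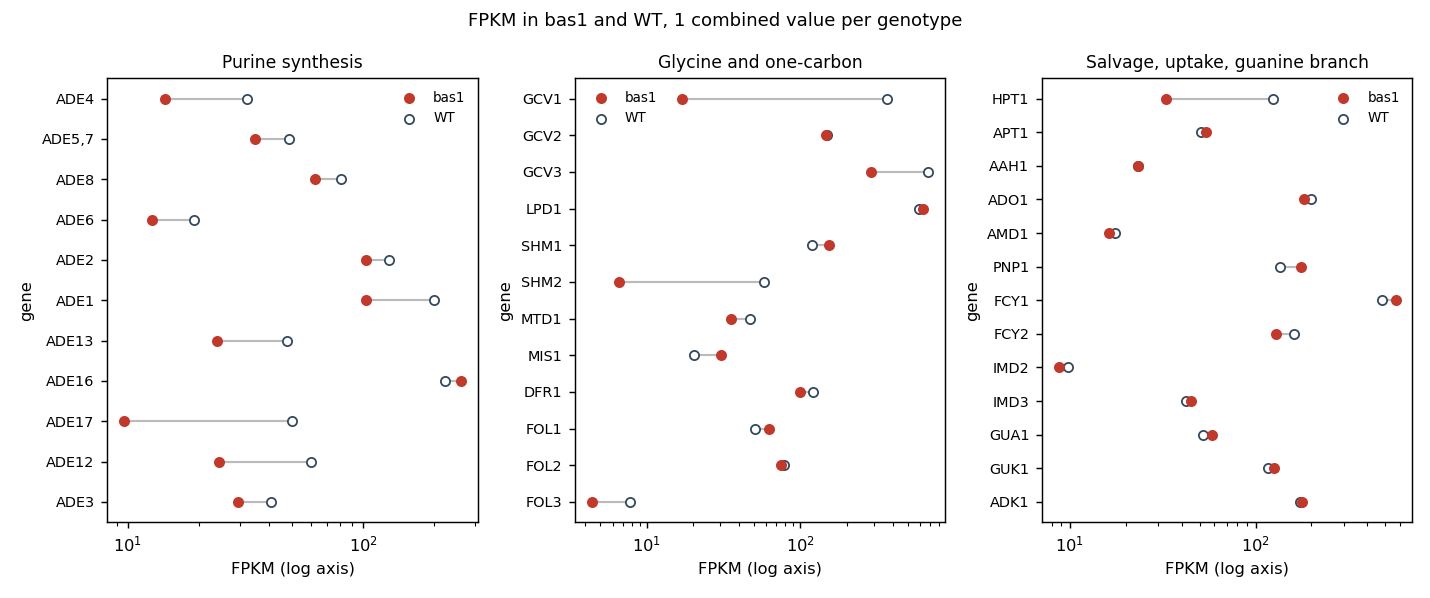
FPKM on a log axis for the genes of de novo purine synthesis, glycine and one-carbon metabolism, and salvage, uptake and the guanine branch, with filled points for bas1 and open points for WT, 1 combined value per genotype. Wide gaps stand at GCV1 (17.1 in bas1 and 365 in WT), SHM2, ADE17 and HPT1, while GCV2, ADE16 and most salvage genes have points close together.

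CHA1, the catabolic serine and threonine deaminase, was also among the 12 lowest, with 13.1 FPKM in bas1, against 47.7 in WT and 59.4 in ino4. Genes of other amino acid pathways were near WT as lists. The medians were 0.10 for 22 methionine and sulfur genes, 0.11 for 17 arginine and lysine genes and 0.14 for 9 branched-chain genes. LYS4, the homoaconitase of lysine synthesis, was the only 2-fold member, with 109 FPKM in bas1 and 49.4 in WT. The general amino acid permease gene GAP1 and the allantoate permease gene DAL5, named after their values were seen, were lower, with differences of -1.05 and -1.06. BAP2, a permease of branched-chain amino acids, was 2.51-fold higher, with 68.8 FPKM in bas1 and 27.5 in WT.

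Glycolysis was the list furthest from WT. Of 16 genes, 10 were at least 2-fold lower in bas1, where 1.48% of all genes were, 15 were negative, and the median difference was -1.50, beside 0.02 over all genes. Their summed FPKM was 3159.6 in bas1, against 11135 in WT and 10609.8 in ino4, or 3.52-fold lower in bas1 than in WT. The lower genes ran from PGI1, which acts at glucose 6-phosphate, to ADH1, which makes ethanol. PGI1 had 76.03 FPKM in bas1 and 251 in WT, FBA1, the aldolase, had 657 in bas1 and 2018 in WT, TPI1 had 192 in bas1 and 533 in WT, and PDC1, the main pyruvate decarboxylase, had 297 in bas1 and 751 in WT. No 30-base word of PGI1, FBA1 or TPI1 occurs elsewhere in the genome, whereas 18.8% of those of ADH1 do. ADH2, outside the list and named after its values were seen, also passed the rule, with 178 FPKM in bas1 and 453 in WT. The share of its words found elsewhere is the same 18.8%.

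Enolase and glyceraldehyde-3-phosphate dehydrogenase have near-identical copies, and reads from these can be split among them. ENO1 had 244 FPKM in bas1 and 1331 in WT, and ENO2 had 102 in bas1 and 455 in WT. TDH3, the most abundant of its family, had 674 FPKM in bas1, against 3536 in WT and 3361 in ino4. TDH1 had 95.7 FPKM in bas1 and 360 in WT, and TDH2 had 134 in bas1 and 443 in WT. All 5 copies were at least 3.30-fold lower. Single values are uncertain, since 40% of the 30-base words of ENO1 and of ENO2, 27.1% of those of TDH1, 52.0% of those of TDH2 and 44.5% of those of TDH3 occur elsewhere. PGK1, GPM1 and CDC19, also of glycolysis, overlap other entries and were not compared.

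Other members of the list lay nearer to WT. PYK2, the minor pyruvate kinase, had 35.9 FPKM in bas1 and 37.3 in WT, and HXK2 had 6.20 in bas1 and 8.45 in WT. The phosphofructokinase genes PFK1 and PFK2 stood between, at -0.49 and -0.79. Genes of acetate use, the glyoxylate cycle and gluconeogenesis gave another picture. None of 14 passed the 2-fold rule and the median was -0.08. ADY2, the acetate transporter, had 13247 FPKM in bas1 and 13719.9 in WT, and ACS1, which makes acetyl-CoA, had 4225 in bas1 and 4668 in WT. PCK1 and ICL1, of gluconeogenesis and the glyoxylate cycle, had positive differences of 0.64 and 0.60. PCK1 is also the second neighbour of BAS1. Medians were 0.02 for 14 genes of the tricarboxylic acid cycle and -0.17 for 24 respiratory genes, or -0.31 with shorter entries included.

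**Figure D3:**
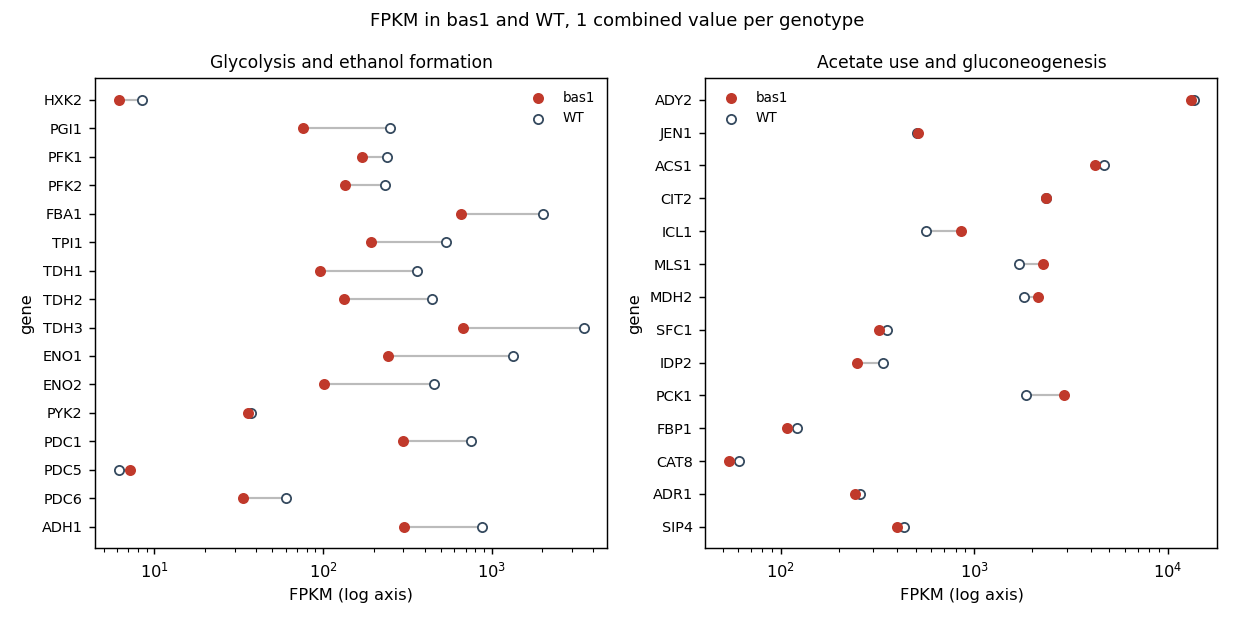
FPKM on a log axis for glycolytic and ethanol genes and for genes of acetate use and gluconeogenesis, with filled points for bas1 and open points for WT, 1 combined value per genotype. The 10 genes at least 2-fold lower in bas1 include TDH3 at 674 in bas1 and 3536 in WT, while ADY2, JEN1 and CIT2 have points that nearly coincide.

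Of regulators of glycolytic genes, TYE7 had 54.5 FPKM in bas1 and 100.3 in WT, a difference of -0.87, GCR1 had -0.27 and RAP1 had 0.23. MIG1, the repressor of glucose-repressed genes, had 11.8 FPKM in bas1 and 25.2 in WT and passed the rule. The pentamer CTTCC, the Gcr1 core, stood in 11 of 16 glycolytic promoters, beside 64.7% of all promoters, and TATAAA in 14 of 16, beside 60.7%. AGGGG, the core of the stress element, stood in 32 of 71 promoters of genes at least 2-fold lower (45.1%), beside 33.9% of all. With 300 bases it stood in 19 of the 71 (26.8%), beside 22.1% of all. The hexose transporter genes HXT2 and HXT5 had differences of -0.90 and -0.87, while HXT10 had 0.87 and HXT11 had 0.58. Of the words of HXT11, 78.4% occur elsewhere in the genome, so its single value is uncertain. The same holds for HXT7 (95.8%), HXT9 (71.9%), HXT13 (54.0%) and HXT17 (53.1%), which also had positive differences. The share was 0% for HXT10, 0.438% for HXT2 and 5.83% for HXT5. The list of 15 had 10 positive members and a median of 0.12, or 0.36 over genes with at least 20 FPKM in a genotype. Its summed FPKM went the other way, with 1476 in bas1 and 2291 in WT, 1.55-fold lower in bas1.

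Phosphate-responsive genes were lower in bas1 as well. Pho2, the partner of Bas1, also acts with Pho4 at these genes, and Pho4 binds CACGTG. The promoters of PHO84 and SPL2 are shown on the same terms as before, with capitals for CACGTG. The stretch of SPL2 holds 3 of its 4 matches. It also holds 1 match to TGACTC, on the other strand at 44 bases before the start codon, which is not in capitals.
PHO84 (chrXIII:26194-26251, minus strand): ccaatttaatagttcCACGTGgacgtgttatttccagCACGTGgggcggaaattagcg
SPL2 (chrVIII:375111-375410, minus strand): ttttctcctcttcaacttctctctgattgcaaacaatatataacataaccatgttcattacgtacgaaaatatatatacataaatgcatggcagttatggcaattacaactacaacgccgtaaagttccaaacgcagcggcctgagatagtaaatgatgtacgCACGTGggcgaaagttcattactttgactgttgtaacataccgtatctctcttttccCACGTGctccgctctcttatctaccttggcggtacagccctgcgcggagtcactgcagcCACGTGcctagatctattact

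Of 14 phosphate genes compared, 4 were at least 2-fold lower in bas1, beside 1.48% of all genes, 12 were negative and the median was -0.63. SPL2, which holds back low-affinity phosphate uptake, had 42.6 FPKM in bas1, against 201 in WT and 135 in ino4. The high-affinity transporter genes PHO84 and PHO89 had 118 and 533 FPKM in bas1 and 385 and 1657 in WT. Both were lower in ino4 too, at 206 and 957 FPKM, beside the same WT values. VTC1, of the vacuolar polyphosphate complex, had 158 FPKM in bas1 and 432 in WT, while its partner VTC2 had a difference of only -0.12. The secreted acid phosphatase gene PHO5 had 18.3 FPKM in bas1 and 32.0 in WT, and PHO8, the vacuolar alkaline phosphatase, had 431 in bas1 and 427.5 in WT. CACGTG stood in 11 of the 14 promoters and in all 4 of the lower genes, beside 6.18% of all promoters, and with 300 bases in 5 of the 14 and 2 of the 4, beside 3.56%. TGACTC stood in 3 of the 14 promoters and in 2 of the 4 lower genes, SPL2 and PHO89, beside 13.1% of all promoters. With 300 bases it stood in 2 of the 14 and in 1 of the 4, beside 7.96%. PHO4 had a difference of -0.10.

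SPL2 lies near SPS100 on chromosome VIII, with ARO9 and YHR138C between. YHR138C had a difference of -0.96 and SPS100 one of -1.62, while ARO9, an overlapping entry that was not compared, had 499.6 FPKM in bas1 and 446 in WT. The entries on the outer sides, YCK1 and YHR139C-A, named after their values were seen, had differences of -0.52 and -0.51. ARO9 thus lay near WT level between lower genes, and whether the region differs as a whole was not tested.

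Middle sporulation genes were the main group on the higher side. Of 47 compared, 11 were at least 2-fold higher in bas1, where 0.659% of all genes were, none was 2-fold lower, 46 were positive and the median difference was 0.80. Their summed FPKM was 15109 in bas1, against 8854 in WT and 5680 in ino4. The middle sporulation element, bound by Ndt80 as an activator and by Sum1 as a repressor, was searched as GNCACAAA or GNCGCAAA, where N is any base. Stretches of 3 promoters with it are shown, with matches in capitals and read on the gene's strand.
CDC5 (chrXIII:271363-271451, minus strand): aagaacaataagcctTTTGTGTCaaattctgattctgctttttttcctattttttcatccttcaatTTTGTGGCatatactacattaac
SPO21 (chrXV:145201-145238, plus strand): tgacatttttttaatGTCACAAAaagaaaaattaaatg
SSP1 (chrVIII:472632-472669, plus strand): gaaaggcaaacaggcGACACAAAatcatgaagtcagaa

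The element stood in 527 of 4802 promoters, in 21 of the 30 promoters of genes at least 2-fold higher (70%) and in 6 of 71 of those at least 2-fold lower. Within the middle list, the 29 genes with the element had a median difference of 0.85 and the 18 without had 0.46. NDT80 itself had 525 FPKM in bas1, against 282 in WT and 277 in ino4, short of the 2-fold rule at 0.89. SUM1 had a difference of 0.13.

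Among genes of the divisions, CDC5, the polo kinase that takes cells out of meiotic prophase, had 409 FPKM in bas1, against 144 in WT and 112 in ino4, and was 2.83-fold higher in bas1 than in WT. The B-type cyclin genes were closer. CLB4 had a difference of 0.73, CLB5 0.37, CLB1 0.21, and CLB3 and CLB6 0.07 each. Of the genes that build the prospore membrane, SPO21, a component of the meiotic outer plaque, had 111 FPKM in bas1 and 48.9 in WT, and SSP1, at the leading edge of the membrane, had 268 in bas1 and 125 in WT. MPC54, another component of the same plaque, was the only member with a negative difference, with 108 FPKM in bas1 and 114 in WT.

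Other members of the middle list act in forming the spore and its wall. SPO77 had 53.9 FPKM in bas1 and 20.2 in WT, 2.66-fold higher, and OSW1 had 155 in bas1 and 68.6 in WT. The chitin deacetylase genes CDA1 and CDA2, which make chitosan, had differences of 0.90 and 0.97, short of the 2-fold rule. SPS1, a kinase needed to complete the spores, had 157 FPKM in bas1, against 72.2 in WT and 26.7 in ino4. PES4, a regulator of the translation of middle genes, had 502 FPKM in bas1 and 236 in WT. SPO19 had the largest level of the 11, with 1169.8 FPKM in bas1 and 551 in WT. CRR1, also of the spore wall, stood just short of the 2-fold rule at 0.99.

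**Figure D4:**
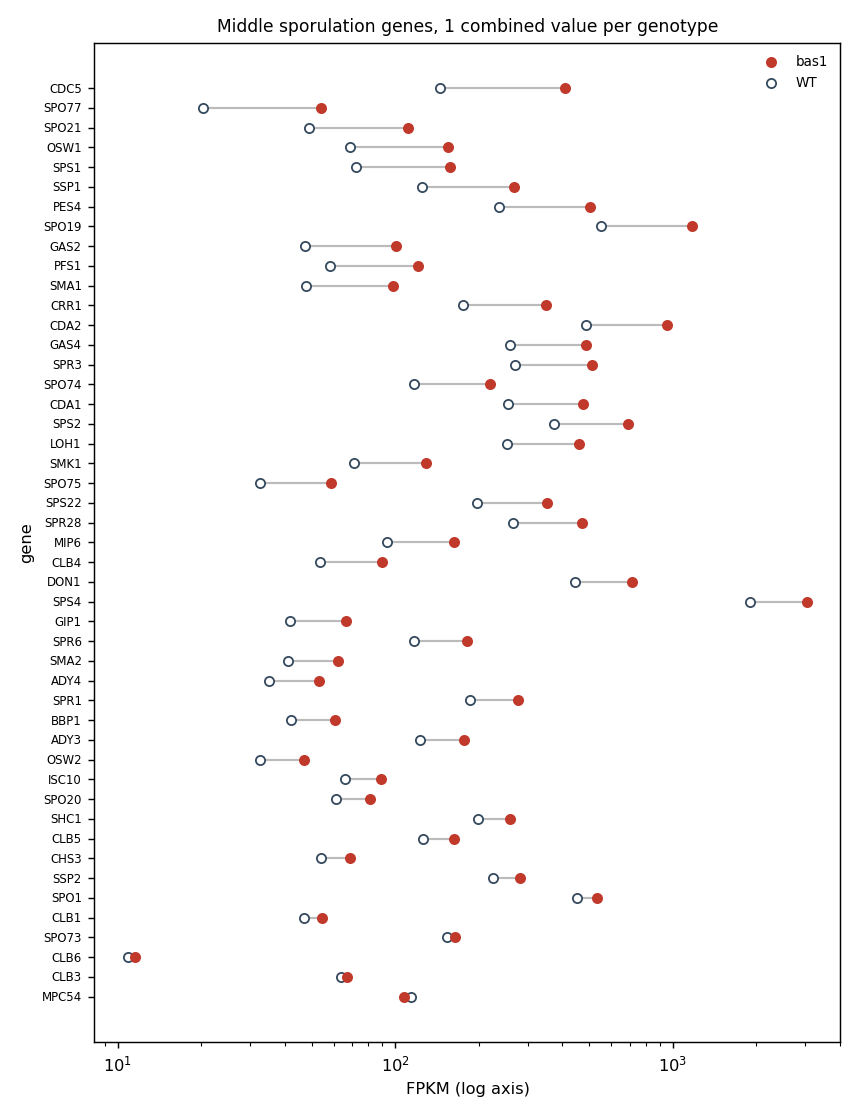
FPKM on a log axis for the 47 middle sporulation genes compared, in order of their difference, with filled points for bas1 and open points for WT, 1 combined value per genotype. The bas1 point lies to the right for 46 genes, from CDC5 with 409 in bas1 and 144 in WT to CLB3, and to the left for MPC54 alone.

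Genes used before and after this stage differed less or went both ways. Medians were 0.19 for 11 genes of break formation, 0.22 for 15 genes of the chromosome axis and synapsis, 0.10 for 23 genes of strand exchange, 0.15 for 12 regulators of entry and 0.16 for 32 replication genes, and none of these genes was 2-fold apart. In the axis list the highest were SGO1, the protector of centromeric cohesion, at 0.76 and MAM1, which joins sister kinetochores, at 0.69. Among 8 late genes, 2 passed the 2-fold rule upwards, beside 0.659% of all genes, and 1 downwards, beside 1.48%. The median of the 8 was 0.57, or 0.85 with overlapping entries kept. DTR1, the dityrosine precursor transporter, had 263.5 FPKM in bas1 and 127 in WT, and IRC18 had 574 in bas1 and 259 in WT, while SPS100, a gene of spore wall maturation, had 46.3 in bas1, against 144 in WT and 94.3 in ino4. DIT1, which makes the dityrosine precursor, had 49.1 FPKM in bas1 and 26.7 in WT.

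Lists for the wall of vegetative cells and for G1 and daughter cells had negative medians. Of 18 vegetative cell wall genes, 5 were at least 2-fold lower in bas1, where 1.48% of all genes were, 16 were negative and the median was -0.66. CCW12, a major wall mannoprotein, had 5329 FPKM in bas1 and 13366 in WT, the largest difference in FPKM of any gene compared. A member of this list listed at 0 in WT was not compared, and no member was at 0 in bas1. The wall protein gene SED1, outside the comparison, was listed at 0 in WT, against 17387 FPKM in bas1. An exact 0 can be a failed estimate. Of 15 genes of G1 and daughter cells, the cyclin gene CLN1 and the transcription factor gene SWI5 were at least 2-fold lower, beside the same 1.48%, 13 were negative and the median was -0.56, or -0.37 over genes with at least 20 FPKM in a genotype. CLN1 had 10.3 FPKM in bas1 and 24.1 in WT, but CLN2, its close relative, had 27.1 in bas1 and 24.4 in WT. DSE1 and DSE2, of daughter cell separation, had differences of -0.95 and -0.80. PMA1, the plasma membrane proton pump, named after its values were seen, had 112 FPKM in bas1 and 231 in WT. The part of dividing cells or of culture timing in the differences of the glycolytic, wall, phosphate and middle genes was not tested.

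**Figure D5:**
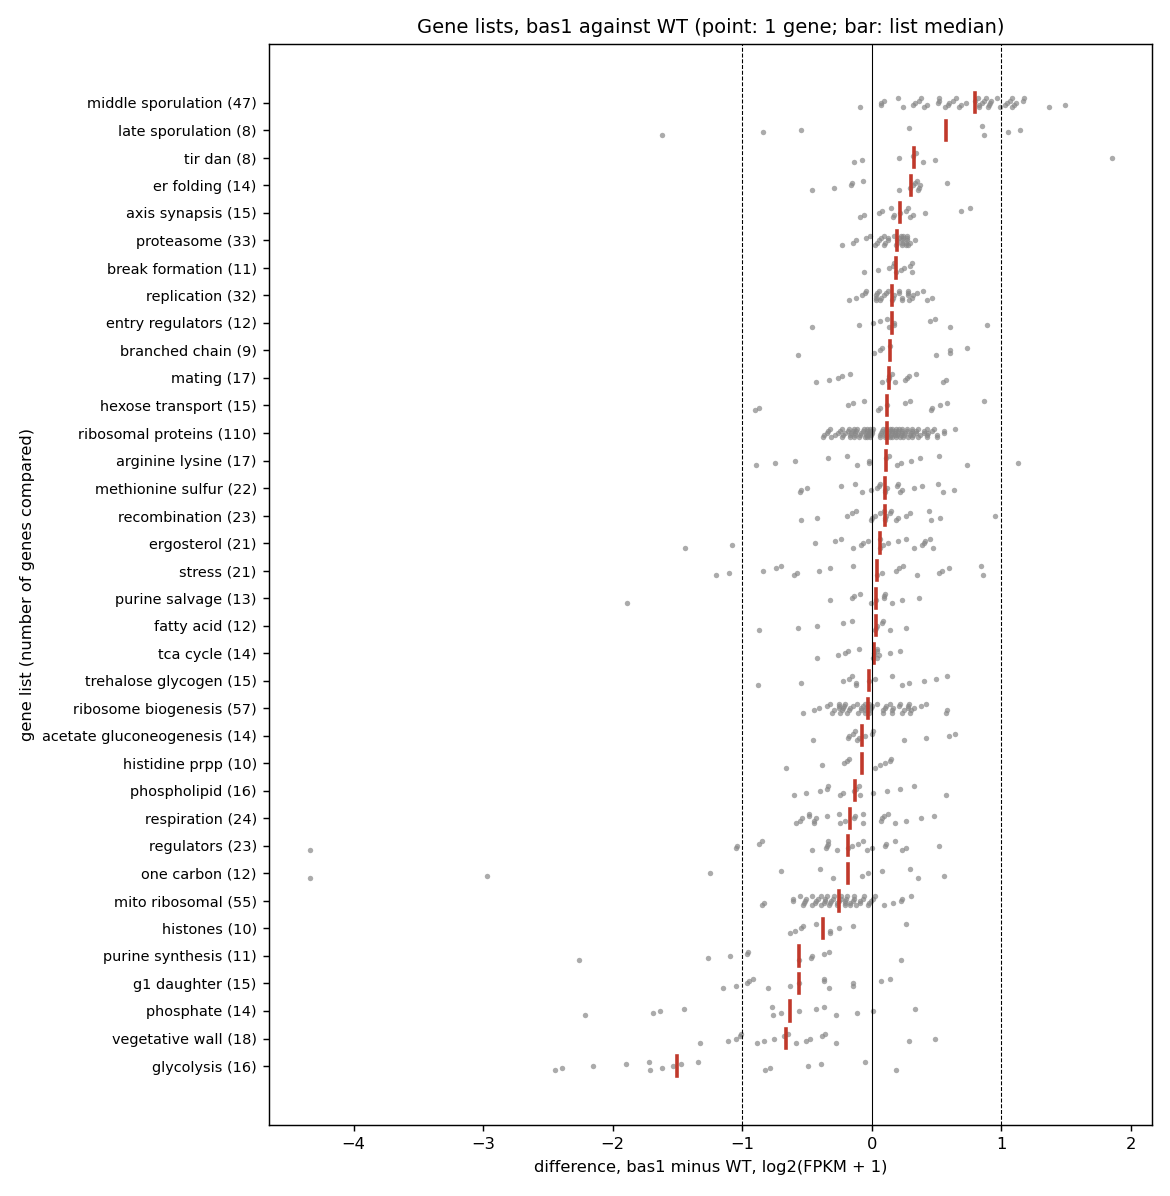
Difference in log2(FPKM + 1), bas1 minus WT, for the genes of 36 lists, each grey point 1 gene and each red bar the list's median, ordered by median with the number of genes compared in brackets. Middle sporulation stands highest at 0.80 and glycolysis lowest at -1.50. Of the 35 lists other than that of regulators, 23 have a median of at most 0.2 in size.

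TIR1, a mannoprotein of the wall known from cold and anaerobic growth, had the highest difference of all, with 371 FPKM in bas1, against 102 in WT and 168 in ino4. Of its coding sequence, 17.4% of the 30-base words occur elsewhere. The 7 other genes compared of its list were short of the 2-fold rule, from TIR4 at 0.49 and DAN1 at 0.40 to TIP1 at -0.14, and 6 of the 8 were positive. ANB1, the anaerobic form of translation factor eIF5A, had a difference of 1.40 at a low level, 14.1 FPKM in bas1 and 4.74 in WT, or 0.97 with a pseudocount of 5, while ROX1, the repressor of anaerobic genes, had 0.52. BSC1 and its neighbour PRM7 were both higher, with differences of 1.51 and 1.24. Of their 30-base words, 19.1% and 6.77% occur elsewhere. YEH1, a steryl ester hydrolase, had 385 FPKM in bas1 and 169 in WT. YNL018C and YJR157W, of no assigned role here, had 1.38 and 1.36, the second 0.92 with a pseudocount of 5, and 57.8% of the words of YNL018C occur elsewhere.

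Among other lower genes, HSP12, a membrane stress protein, had 3919 FPKM in bas1 and 9005 in WT, and SPI1, a wall protein of stationary cells, had 660 in bas1 and 1416 in WT. They were the only 2-fold members of 21 stress genes, beside 1.48% of all genes at least 2-fold lower. The median of these stress genes was 0.04, or -0.36 with shorter entries included. HSP12 and SPI1 are short, at 330 and 447 bp, and of genes under 500 bp 5.28% were at least 2-fold lower. The cytosolic chaperone genes HSC82 and SSA4 were on the other side, at 0.60 and 0.84. ERG3 and ERG20 were the only 2-fold members of 21 ergosterol genes, with 103 and 25.9 FPKM in bas1 and 282 and 55.8 in WT. Both were lower, beside 1.48% of all genes, while 12 of the 21 were positive and the median was 0.06. NCE103, carbonic anhydrase, named after its values were seen, had 303 FPKM in bas1 and 821 in WT. YLR053C, whose function is not known, had 68.3 FPKM in bas1 and 242 in WT.

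Short genes stood lower in bas1. The 436 genes of at least 300 and under 500 bp had a median of -0.18 and 68.1% of them were negative, and 5.28% were at least 2-fold lower, beside 1.48% of all genes. The medians were -0.03, 0.06 and 0.05 in the bands from 500, 1000 and 2000 bp. The 10 histone genes, with a median length of 399 bp, had a median difference of -0.38. The 55 mitochondrial ribosomal protein genes, with a median length of 750 bp, had one of -0.25. Neither list had a 2-fold member. With the median of each length band set to 0, an alternative added after seeing the data, the histone median was -0.20. The mitochondrial ribosomal median was then also -0.20, which is not a move of 0.1. Glycolysis, purine and middle sporulation genes are longer, and their medians under this setting stayed within 0.1 of those above.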

How the data were processed

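RNA was sequenced from 2 meiotic cultures per genotype, taken at 4 h. The deposited table gives FPKM values made by the authors, 1 column per genotype per the file headers. STAR, Cufflinks and the build sacCer2 were used per the submitters' processing notes. Their versions and settings, the use of strand and how cultures were combined are not given in the sources used. Low FPKM values were multiplied by length and searched for steps of a single read. With the step that worked best, 15.5% to 15.6% came out whole within 0.05 reads, where 10% fall by chance for a fixed unit. Reads were not recovered and the depth is unknown.

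From the FPKM values, differences of log2(FPKM + 1) were computed, bas1 minus WT, in Python 3.11.15 with pandas 2.3.3 and numpy 2.4.6, and the steps were checked on simulated data. Entries were dropped in steps, from 6932 to 6570 with a single gene name, 6145 above 0, 5888 with at least 5 FPKM, 5669 of at least 300 bp and 4857 without overlap. No test was made, since a genotype has 1 value. The members and the 36 gene lists were chosen with earlier results of these data known, and give no independent support. Named genes were BAS1 and its neighbours, the 12 highest and 12 lowest differences, up to 6 members of each list with the largest differences, the 5 largest FPKM differences in each direction, and any gene of the purine, one-carbon, salvage, histidine, phosphate and glycolysis lists. Outside this rule, and named after their values were seen, were CDA1, CDA2, CRR1, MPC54, PES4, SPO19, the CLB genes, CLN2, TIP1, ACS1, ADY2, JEN1, CIT2, the regulators PHO2, PHO4, GCN4, GCR1, RAP1 and SUM1, and genes said to be so in the text.

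Promoters and shared 30-base words came from the RefSeq genome and annotation R64, with 4802 of 4857 genes matched by symbol. Of these, 98.7% had the same length as in the table and 14.7% the same start, so R64 positions are given only with sequences. Lengths were multiples of 3 in 96.6% of entries and are therefore mostly coding lengths. Motifs were searched in 500 bases, a window chosen after 300 and 500 bases had both been looked at, and CTTCC and TATAAA were added after seeing the data. Some items that these rules take are not reported here.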

Additional observations from a re-analysis of the deposited data

Results flagged for a closer look

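Entries listed at 0 in WT and at 5 FPKM or more in bas1 lie outside the comparison, and 8 were found. An exact 0 in such a table can be a failed estimate, so no fold is given. The highest was SED1, a major wall protein of spores and of stationary cells, with 17387 FPKM in bas1 and 0 in WT and in ino4. The next were YFL031C-A with 66.65 FPKM in bas1, YBR196C-B with 32.67, YGR068W-A with 24.75 and YLR264C-A with 18.63, all at 0 in WT. YBR196C-B had 71.4 and YLR264C-A 17.8 FPKM in ino4, and the other 2 were at 0 there. YLR120W-A had 14.17 FPKM in bas1, the small RNA gene SNR87 had 7.77 and YHR050W-A had 5.42, all at 0 in WT and in ino4. YFL031C-A, YGR068W-A and YLR120W-A overlap other entries. None of the 8 was analysed further, and the cause of the values at 0 was not tested.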

How the results depend on the processing

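No paired analysis was possible because the table holds 1 combined column per genotype, and for the same reason leaving out each replicate could not be run. Of 12 alternatives, 3 planned ones rescaled the values and moved the median of all differences by 0.02 or less. Setting the median of each length band to 0 also rescaled the values, and brought the median of all differences from 0.02 to 0. None of the 24 named genes followed changed sign under the alternatives run for them. The 1.5-fold rule gave 159 genes higher and 277 lower in bas1, and under every other alternative both counts were within 1.5 times those reported. A list median is said to move here when it changed by at least 0.1, since no replicate spread exists, and 13 list values did while 383 did not. With at least 20 FPKM in a genotype the medians were -0.37 for G1 and daughter genes, 0.36 for hexose transporters, 0.044 for histidine and PRS genes, -0.073 for one-carbon genes and -0.71 for purine synthesis. A pseudocount of 5 gave -0.45 for purine synthesis and -0.53 for phosphate genes (-0.525), no filter on low values -0.73 for phosphate genes, and quantile normalization 0.23 for hexose transporters. Without a minimum length the medians were -0.31 for respiration and -0.36 for stress genes, and with overlapping entries kept 0.85 for late genes, beside 0.57 as reported. Medians near 0 changed sign under some settings for histidine and PRS, stress, fatty acid, tricarboxylic acid cycle and ribosome biogenesis genes. Length bands, added after seeing the data, gave -0.20 for histones. The cause of these moves was not tested, apart from the change in the genes that enter. Of 24 named genes followed, 2 fell short of 2-fold, ANB1 (0.97) and YJR157W (0.92) with a pseudocount of 5. Glycolysis kept a median between -1.57 and -1.49 and middle sporulation one between 0.71 and 0.81. Depth is unknown, so it sets no limit that can be stated.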

Other observations

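The reverse case, entries listed at 0 in bas1 and at 5 FPKM or more in WT, had 11 entries. The merged entry of YDR133C and YDR134C was listed at 0 in bas1, against 56536 FPKM in WT and 51302 in ino4, and YOR302W, an upstream open reading frame, at 0 in bas1, against 1405 in WT and 2537 in ino4. The small nucleolar RNA gene SNR41 was at 0 in bas1, against 126 FPKM in WT and 187 in ino4. An exact 0 can be a failed estimate, and no comparison was made.

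Other gene groups moved little. Of 33 proteasome subunit genes 28 were positive in bas1, with a median of 0.19 and none 2-fold apart. Of 110 cytoplasmic ribosomal protein genes 67 were positive and the median was 0.12, and 57 ribosome biogenesis genes had -0.03. The 14 genes of folding in the endoplasmic reticulum had a median of 0.31, with the oxidase gene ERO1 at 73.6 FPKM in bas1 and 49.0 in WT. Among regulators, INO2, the partner of Ino4, had 22.6 FPKM in bas1 and 41.4 in WT, and the stress factor gene CIN5, chosen after its values were seen, had 342 in bas1, against 850.4 in WT and 396 in ino4.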
